A study of Drosophila melanogaster with 4 samples.

Results

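The odorant receptor family of *Drosophila melanogaster* was examined by 3′-seq, which reads the poly(A) ends of mRNAs, in whole heads of untreated adult wild-type flies. The family was taken as all genes of the count table whose FlyBase symbol is Or followed by a digit, plus *Orco*, with genes at 0 kept. This gave 60 of the 13608 genes, namely the co-receptor *Orco* and 59 tuning receptors. A further reference symbol of the family, *Or98P*, was not analysed here. The libraries form 1 group of 4 replicates, with no treatment, mutant or second tissue, so no comparison between conditions exists. By the study's methods its wild type is *w1118*, whereas the series record speaks of independent wild-type lines, and the sample labels name only replicates. The study used adults of both sexes, and the labels give neither the sexes nor the age or number of flies for each library. By the study's methods the RNA came from lysates of UV-cross-linked head powder, and nothing in the labels says that the 4 replicates came from separate pools of flies, so tests here measure only the spread between these preparations.

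Odorant receptors are membrane proteins that form odor-gated ion channels in the dendrites of olfactory sensory neurons. Each neuron generally makes a chosen tuning receptor, which sets the odors it answers, together with *Orco*, the co-receptor that carries tuning receptors to the cilium and forms the channel with them. In adult flies these neurons sit in hair-like sensilla on the antenna (basiconic, trichoid, intermediate and coeloconic types) and on the maxillary palp, both of which are part of the head. A further set of receptors is known from the larval olfactory organ and not from adult olfactory organs. The receptors were grouped by these organs from textbook knowledge.

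Gene counts summed to between 8753359 (replicate 3) and 13434565 (replicate 1) per library, and levels are given as counts per 1000000 gene counts (CPM). In 3′-seq a transcript gives reads at its poly(A) end only, so levels of different genes were compared without division by length. Markers of neurons (*elav*, *nSyb*, *brp*, *Syt1*) and photoreceptors (*ninaE*, *trp*, *trpl*, *ninaC*) had counts in every replicate, with summed levels of 1679 to 2364 CPM and 6761 to 10533 CPM. Replicate 1 stood apart for genes of other body parts. The 5 male accessory gland genes summed to 259.6 CPM there against 4.00 to 43.7 CPM in the others, and the 5 midgut genes to 653 CPM against 74.7 to 150.0 CPM. All 5 midgut genes and 2 of the 5 accessory gland genes had counts in every replicate.

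Most of the family was at 0. Of the 60 members, 46 (76.7%) had no count in any of the 4 replicates, whereas 12.6% of all 13608 genes did. Only 3 members had at least 1 count in every replicate, namely *Or63a*, *Or45b* and *Orco*, which is 5% of the family beside 63.3% of all genes. A further 11 members had counts in 1 to 3 replicates. A count of 0 allows up to 3 counts, or 0.223 CPM in replicate 1 and 0.343 CPM in replicate 3, and 0 in all replicates together allows up to 0.0682 CPM. These limits cover counting error only. In bulk heads, few cells that carry a receptor and little RNA per cell cannot be told apart.

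The family as a whole had 198, 110, 42 and 170 counts in replicates 1 to 4, which is 14.7, 9.89, 4.80 and 15.9 CPM. Replicate 3 was the lowest and also the shallowest library. The mean was 11.3 ± 5.08 CPM (SD, n = 4), and leaving out each replicate in turn gave 9.81 to 13.5 CPM. *Or63a* and *Or45b* together held 60.8% of the 520 family counts, and with *Orco* 70.2%. By replicate, 10, 6, 6 and 7 members had counts. Replicate 1 was the deepest library, and 4 members had counts there alone. Over all genes, 84.0% had counts in replicate 1 and 67.6% to 73.8% in the others.

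**Figure D1:**
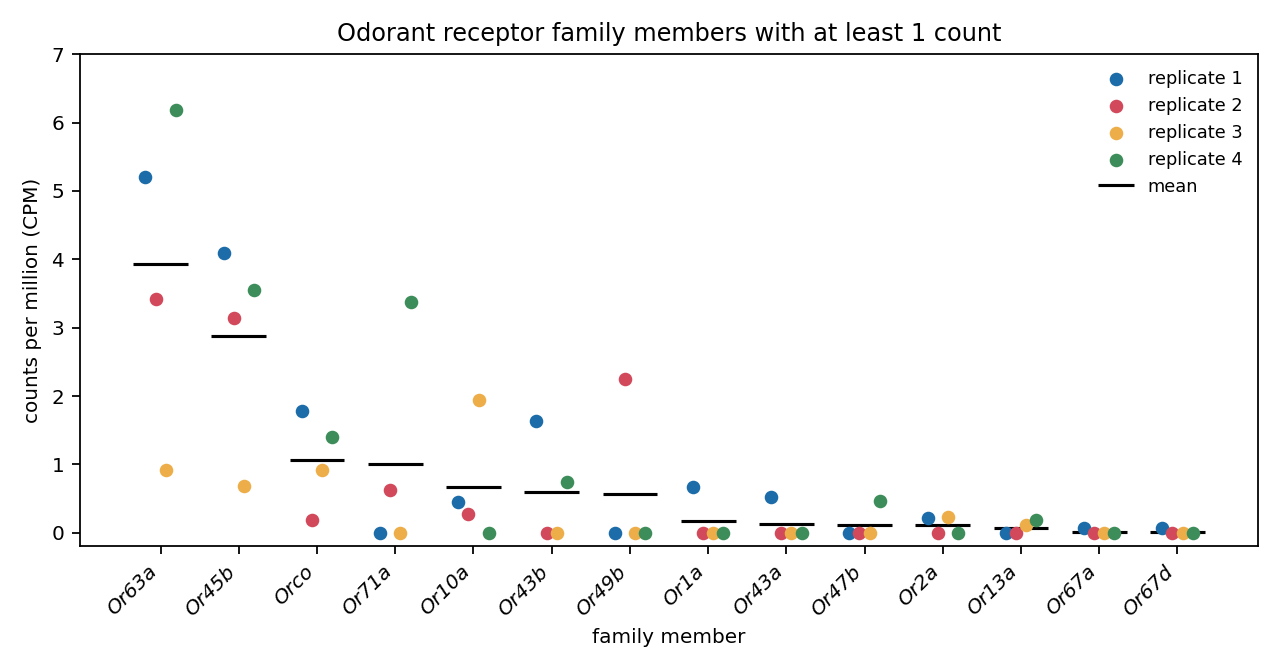
Level in CPM (y axis) of the 14 family members with at least 1 count (x axis), 1 point per replicate and a bar for the mean of the 4 replicates. *Or63a* and *Or45b* are lowest in replicate 3 and lie above *Orco* in the mean, and most other members have counts in only some replicates.

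The co-receptor *Orco* (FBgn0037324) lies on chromosome 3R from 5407183 to 5412406 of dm6, on the minus strand, and overlaps no other annotated gene. It had 24, 2, 8 and 15 counts in replicates 1 to 4. These are 1.79 CPM (95% Wilson interval 1.20 to 2.66 CPM), 0.180 CPM (0.0493 to 0.656 CPM), 0.914 CPM (0.463 to 1.80 CPM) and 1.4 CPM (0.851 to 2.32 CPM). Replicate 2 was low, and its interval lay below those of replicates 1 and 4. All Wilson intervals given here cover counting error only. By the chi-square test below, 96.9% of 9996 genes differed between replicates by more than that. The mean was 1.07 ± 0.693 CPM (SD, n = 4), and 9282 of the 13608 genes (68.2%) had a higher mean. *Orco* took 12.1%, 1.82%, 19.0% and 8.82% of the family counts in replicates 1 to 4, a mean of 10.5%. The 59 tuning receptors together were above *Orco* in every replicate, at 13, 9.71, 3.88 and 14.5 CPM.

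The tuning receptors with the highest levels belonged to the larval set. *Or63a* (FBgn0035382, chromosome 3L, 2961534 to 2963788, plus strand) had 70, 38, 8 and 66 counts, or 5.21, 3.42, 0.914 and 6.18 CPM. The Wilson interval of replicate 3, 0.463 to 1.80 CPM, lay below those of the other replicates, of which the lowest bound was 2.49 CPM in replicate 2. Its mean was 3.93 ± 2.31 CPM (SD, n = 4), above *Orco* in replicates 1, 2 and 4 and at the same 8 counts in replicate 3. It overlaps no other annotated gene.

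*Or45b* (FBgn0033422, chromosome 2R, 9559598 to 9561068, plus strand) had 55, 35, 6 and 38 counts, or 4.09, 3.15, 0.685 and 3.56 CPM. Replicate 3 was again low, with an interval of 0.314 to 1.5 CPM below a lowest bound of 2.26 CPM in the others. The mean was 2.87 ± 1.51 CPM (SD, n = 4). The whole of *Or45b* lies inside *asRNA:CR45281*, an antisense RNA gene on the opposite strand from 9559255 to 9565190. The strand setting of the counting is not given in the sources used here, so reads of the receptor and of the antisense RNA cannot be told apart. The third larval receptor with counts, *Or1a* on chromosome X, had 9 counts in replicate 1 and 0 in the others, and lies within an intron of *CG3777* on the same strand.

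The other 10 of the 13 larval receptors were at 0, namely *Or22c*, *Or24a*, *Or30a*, *Or45a*, *Or59a*, *Or74a*, *Or83a*, *Or85c*, *Or94a* and *Or94b*. The larval set summed to 9.97, 6.56, 1.60 and 9.74 CPM in replicates 1 to 4, a mean of 6.97 ± 3.90 CPM (SD, n = 4). It held 67.7%, 66.4%, 33.3% and 61.2% of the family counts. Without the members whose exons overlap another gene the larval set had a mean of 4.10 CPM, nearly all of it on *Or63a*, and the whole family 7.20 CPM. Both values were chosen after the data were seen.

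**Figure D2:**
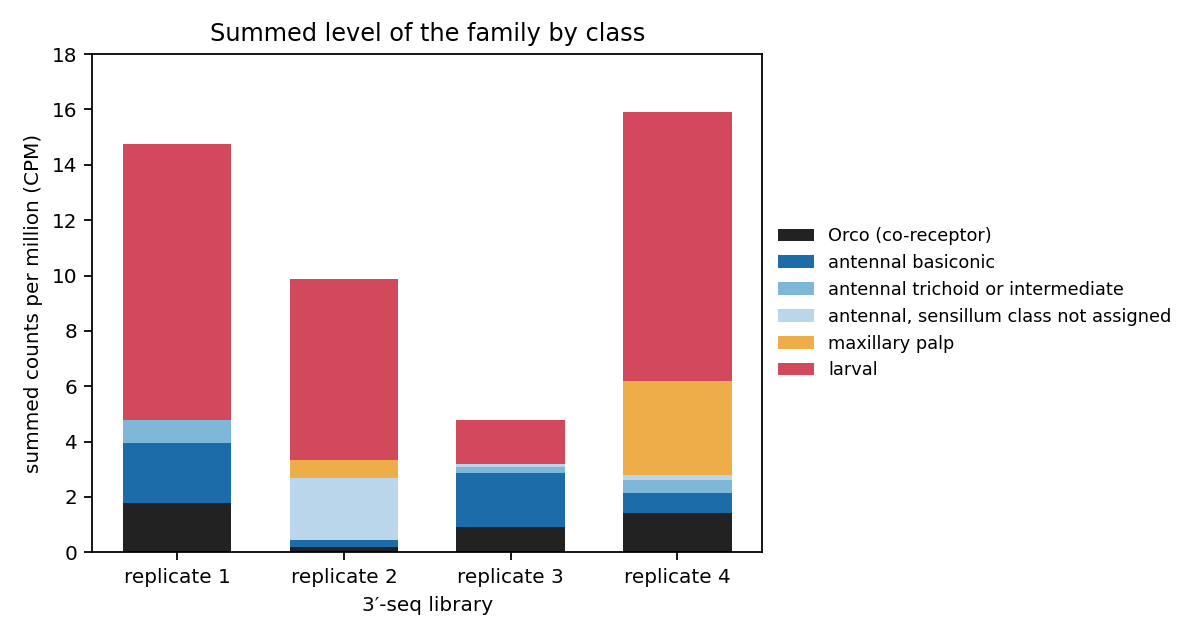
Summed CPM (y axis) of the family in each of the 4 libraries (x axis), stacked by the organ in which a receptor is known. The larval set, nearly all *Or63a* and *Or45b*, is the tallest block in replicates 1, 2 and 4, at 9.97, 6.56 and 9.74 CPM. In replicate 3 it had 14 counts beside 17 of the basiconic set, all of those on *Or10a*.

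Most receptors of the antenna were at 0, and the others had counts in only some replicates. The 38 antennal receptors together had 40, 28, 20 and 15 counts in replicates 1 to 4, and 29 of them had none. Their sum was 2.30 ± 0.660 CPM (SD, n = 4), beside 1.07 CPM for *Orco*. In each library 1 receptor held most of it. *Or43b* had 22 of the 40 counts in replicate 1 and 8 of the 15 in replicate 4. *Or49b* had 25 of the 28 in replicate 2, and *Or10a* 17 of the 20 in replicate 3. The SD of the sum therefore does not describe a steady level of the same receptors. The highest single values were 2.25 CPM for *Or49b* in replicate 2, 1.94 CPM for *Or10a* in replicate 3 and 1.64 CPM for *Or43b* in replicate 1. None of the 38 had counts in every replicate.

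Of the 23 basiconic receptors, 20 were at 0. They include *Or22a* and *Or42b*, which answer fruit esters and vinegar odors, *Or92a*, the diacetyl receptor, and *Or56a*, the receptor for the mold odor geosmin. The others are *Or7a*, *Or9a*, *Or22b*, *Or33a*, *Or33b*, *Or47a*, *Or49a*, *Or59b*, *Or67b*, *Or67c*, *Or69a*, *Or82a*, *Or85a*, *Or85b*, *Or85f* and *Or98a*. The set summed to 2.16, 0.270, 1.94 and 0.749 CPM, a mean of 1.28 ± 0.915 CPM (SD, n = 4).

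The basiconic receptors with counts differed in the replicates that held them. *Or43b* (FBgn0026393, chromosome 2R, 7920835 to 7922604, minus strand), an ester receptor, had 22, 0, 0 and 8 counts, and its mean of 0.597 CPM fell to 0.250 CPM without replicate 1. Its 3′ part overlaps 745 bp of *Cul1*, which ends on the opposite strand and had 728 to 1448 counts per library. *Or10a* (FBgn0030298, chromosome X, 11413467 to 11417422, minus strand), the methyl salicylate receptor, had 6, 3, 17 and 0 counts. It was highest in the library where the larval receptors were lowest. Its mean of 0.665 CPM fell to 0.239 CPM without replicate 3. In the annotation *Or10a* shares its span and strand with *Gr10a*, a gustatory receptor gene not analysed here, so its counts may belong to either gene. The remaining member of the set, *Or67a*, had 1 count in replicate 1.

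Of the 12 trichoid and intermediate receptors, which include pheromone receptors, 8 were at 0, namely *Or19a*, *Or19b*, *Or23a*, *Or65a*, *Or65b*, *Or65c*, *Or83c* and *Or88a*. The set had 11, 0, 2 and 5 counts in replicates 1 to 4, a mean of 0.379 ± 0.350 CPM (SD, n = 4), or 0.232 CPM without replicate 1. *Or67d*, the receptor for the male pheromone cis-vaccenyl acetate, had 1 count, in replicate 1. *Or47b*, a receptor of courtship odors, had 5 counts in replicate 4. *Or43a* had 7 counts in replicate 1, and *Or2a* had 3 counts in replicate 1 and 2 in replicate 3. *Or67a*, *Or67d* and *Or13a*, with 1 to 3 counts each, fall outside the rule for named genes and were named after their values were seen.

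The coeloconic receptor *Or35a* was at 0, as was *Or98b*, which was assigned to no organ. Both antennal receptors without an assigned sensillum type had counts. *Or49b* (FBgn0028963, chromosome 2R, 12842665 to 12844704, plus strand) had 25 counts in replicate 2, or 2.25 CPM with an interval of 1.52 to 3.32 CPM, and 0 in every other replicate, so its mean of 0.562 CPM is 0 without replicate 2. From the other replicates, scaled by library totals, 11.0 *Or49b* counts were predicted for replicate 1. Such zeros were common, at 33.2% of the 3071 values with 10 to 20 predicted counts over all genes. Among members they were 4 of 9. *Or13a* had 1 count in replicate 3 and 2 in replicate 4.

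On the maxillary palp, 6 of 7 receptors were at 0, namely *Or33c*, *Or42a*, *Or46a*, *Or59c*, *Or85d* and *Or85e*. The exception was *Or71a* (FBgn0036474, chromosome 3L, 15076907 to 15078447, minus strand), a receptor for phenolic odors, with 0, 7, 0 and 36 counts. Replicate 4 alone was high, at 3.37 CPM (Wilson interval 2.43 to 4.67 CPM) against 0.629 CPM in replicate 2. The mean of 1.0 ± 1.61 CPM (SD, n = 4) fell to 0.210 CPM without replicate 4. *Or71a* lies within an intron of *Plp* on the same strand, and *Plp* had 176 to 443 counts per library and 265 in replicate 4. The part of *Plp* reads in the counts of *Or71a* was not tested.

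Members of the family differed from other genes in the annotation of their ends. In 3′-seq, reads from a poly(A) site beyond the annotated end of a gene are not assigned to it by a count over gene models. In the Ensembl annotation (release 115) of dm6, 39 of the 60 members (65%) had no annotated 3′UTR in any isoform, against 3.84% of all genes. Of these 39 members 35 were at 0 (89.7%), and of the 21 members with an annotated 3′UTR 11 were at 0 (52.4%). Over the other 13548 genes the shares were 62.6% of 484 genes without and 10.5% of 13064 genes with a 3′UTR.

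The share at 0 was also split by length of the annotated 3′UTR. It was 66.7% of 9 members with 1 to 100 nt and 28.6% of 7 over 200 nt. Over the other genes it went the same way, from 17.5% to 5.89%. Gustatory and ionotropic receptor genes went the opposite way, from 22.2% of 9 to 50% of 4 and from 0% of 5 to 57.1% of 7. Odorant-binding proteins had 16.7% of 18 and 12.5% of 8. The family groups are small, and a link with length was not tested. Of the 7 members whose longest 3′UTR exceeded 200 nt, 5 had counts. They were *Or63a* with 932 nt, *Orco* with 269 nt, *Or71a* with 296 nt, *Or43a* with 379 nt and *Or10a* with 1579 nt. The counts of *Or10a* may belong to *Gr10a*, which shares its span and strand. *Or59b* with 237 nt and *Or45a* with 2251 nt were at 0. The 4 members with counts and no annotated 3′UTR were *Or45b*, *Or47b*, *Or13a* and *Or67d*. Within each class of 3′UTR the share at 0 was higher in the family than over the other genes, at 28.6% of 7 members against 5.89% of 6941 genes for those over 200 nt. The study names an earlier Ensembl release for mapping and counting its RNA-seq data and none for 3′-seq, so the annotation behind these counts may differ from release 115, and the part of missing 3′UTRs in the zeros was not tested.

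**Figure D3:**
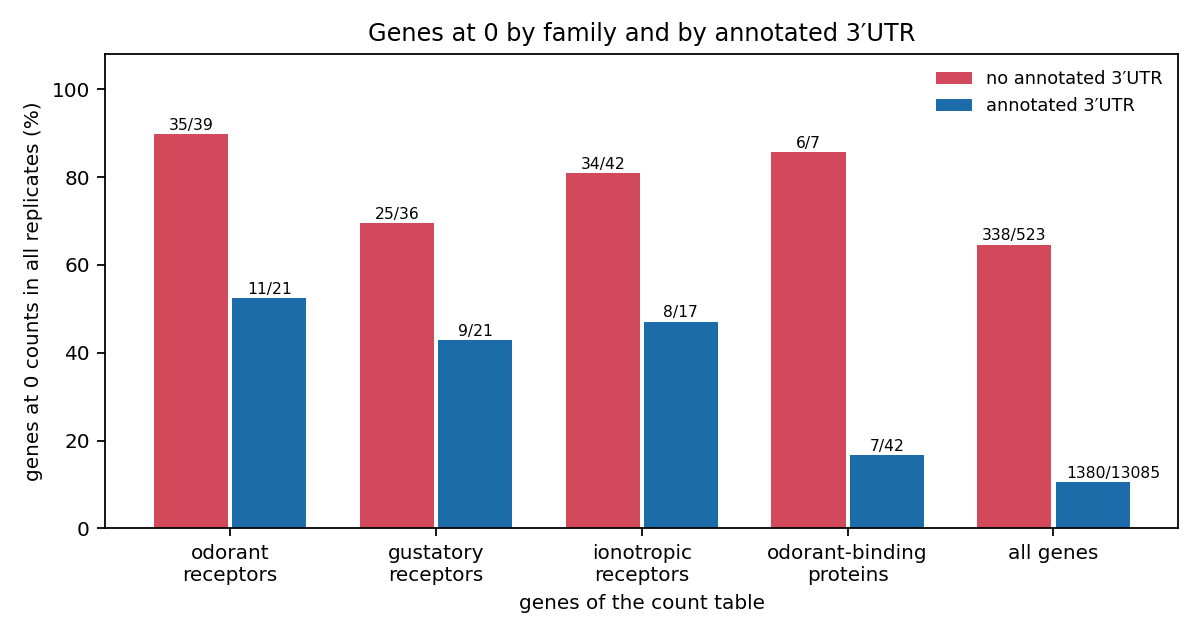
Share of genes at 0 counts in all 4 replicates (y axis, percent) for the odorant receptor family, 3 other chemosensory families and all genes (x axis), split by whether the annotation gives the gene a 3′UTR. The numbers above the bars are genes at 0 over genes in the group, and the bars without a 3′UTR are the taller ones in each group.

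Odorant receptor genes partly lie in tandem. Within 5 kb of each other on the same arm lay 16 members in 9 neighboring pairs, among them *Or22a* and *Or22b*, *Or33a*, *Or33b* and *Or33c*, *Or65a*, *Or65b* and *Or65c*, and *Or94a* and *Or94b*. All 16 were at 0, as were 76.7% of the whole family and 12.6% of all genes. Tandem copies such as *Or22a* and *Or22b* can share reads, and the handling of reads that map to more than 1 place is not given in the sources used here. The parts of tandem position, shared reads and missing 3′UTRs in these zeros were not tested. All 10 members on chromosome arm 2L were at 0, of which only *Or23a* overlaps another gene. By arm, counts were found for 5 of 15 members on 2R, 4 of 11 on 3L, 1 of 16 on 3R and 4 of 8 on X. Of the 14 members with counts, 5 overlap another annotated gene, and of the 46 at 0, 13 do. These splits by arm and by overlap were neither tested nor compared with all genes.

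Other genes of the olfactory organs were read in the same libraries for scale, from a list of 14. Of these, 8 had counts in every replicate and 2, *Amt* and the ionotropic co-receptor *Ir8a*, were at 0. *Snmp1*, a CD36-like protein that pheromone-sensing neurons need, had 220, 380, 190 and 356 counts. It exceeded *Orco* in every replicate, from 9.17 times in replicate 1 to 190.0 times in replicate 2, and was 26.4 ± 8.77 CPM (SD, n = 4). The ratio in replicate 2 rests on 2 *Orco* counts, so its size is poorly known. It also exceeded the sum of the whole odorant receptor family in every replicate, by 1.11 to 4.52 times. The annotated 3′UTR of *Snmp1* is 547 nt long.

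The odorant-binding proteins of antennal sensilla were highest in replicate 4. *Obp83a* had 1.94, 5.57, 8.34 and 19.9 CPM in replicates 1 to 4, *lush*, which binds cis-vaccenyl acetate, 1.49, 2.88, 0.571 and 5.43 CPM, and *Obp83b* 0.372, 2.07, 0.228 and 12.4 CPM. The antennal gene *a10* had 2.90, 1.80, 2.17 and 10.7 CPM. *Or71a*, *Or63a* and the family sum were also highest in replicate 4, whereas *Orco* and the antennal receptors as a group were highest in replicate 1. The part of differing amounts of antenna and palp in the receptor levels was not tested.

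The transcription factor genes *acj6* and *pdm3*, which set receptor choice and are also used in other neurons, had 22.5 ± 3.44 CPM and 19.0 ± 7.54 CPM (SD, n = 4). The carbon dioxide receptor genes *Gr21a* and *Gr63a*, expressed together in antennal neurons, had 16 counts in replicate 4 and 2 counts in replicate 3, respectively. Of the ionotropic receptors, *Ir25a* had counts in every replicate at 4.52 ± 1.98 CPM, *Ir76b* had 37, 3, 0 and 6 counts, and *Ir64a* had 12 counts in replicate 2.

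**Figure D4:**
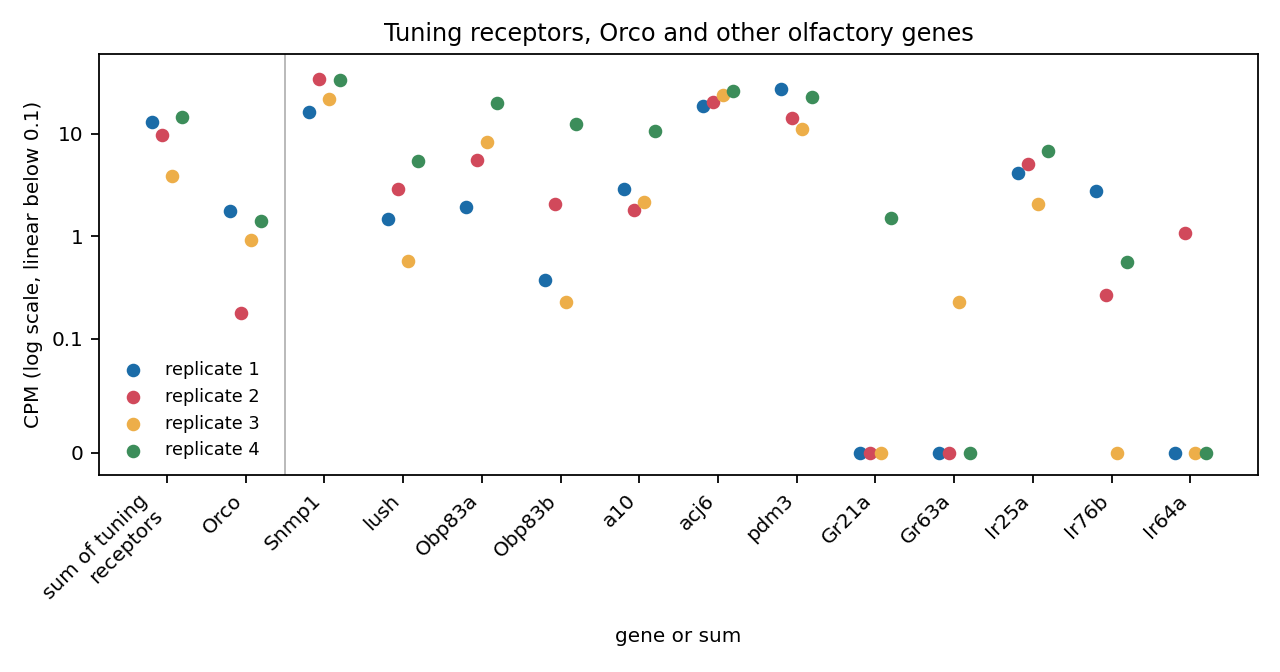
Level in CPM (y axis, log scale that is linear below 0.1) of the summed tuning receptors, *Orco* and the 12 other olfactory genes with counts (x axis), 1 point per replicate. *Snmp1*, *acj6* and *pdm3* lie above *Orco* in all 4 replicates, and the binding protein genes are highest in replicate 4.

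The gustatory and ionotropic receptor families, the most similar gene groups, were placed beside the odorant receptors. Of 57 gustatory receptor genes, 34 (59.6%) were at 0, and of 59 ionotropic receptor genes, 42 (71.2%), against 46 of 60 odorant receptors. All of these families had a high share of genes with no annotated 3′UTR, at 63.2% for gustatory, 71.2% for ionotropic and 65% for odorant receptors. The odorant-binding proteins, a family of secreted proteins, were at 0 for 13 of 49 genes (26.5%), and 14.3% of them had no annotated 3′UTR. The summed level was 11.9 ± 5.11 CPM for gustatory, 52.8 ± 23.6 CPM for ionotropic and 11.3 ± 5.08 CPM for odorant receptors (SD, n = 4). That of the odorant-binding proteins was 10231 ± 1067 CPM (SD, n = 4). Little of it came from the antennal *Obp83a* and *Obp83b*, with means of 8.95 and 3.76 CPM. Differences between the families were not tested.

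Counts of the 6 members that could be tested varied beyond counting noise, as did those of nearly all tested genes. A chi-square test of the counts of a gene against the library totals, with Benjamini-Hochberg adjustment over all 9996 genes with at least 5 expected counts per library, called 96.9% of these genes at an adjusted p of 0.05. All 6 members it could test were called, namely *Or63a*, *Or45b*, *Orco*, *Or71a*, *Or43b* and *Or10a*, a share near that of all genes. *Or71a*, *Or43b* and *Or10a* reached the minimum for testing mainly through 1 library each, so their calls largely follow from that minimum. *Orco* was no longer called without replicate 2, and *Or45b* no longer without replicate 3. Spread between replicates beyond counting noise was fitted with edgeR as the biological coefficient of variation, which was 0.605 over 9532 genes whose counts averaged 10 or more. It was 0.764 for *Or63a*, 0.837 for *Or45b*, 1.06 for *Orco* and 1.77 for *Or71a*. Among these genes the values lay at percentiles 78.1, 81.2, 88.1 and 98.4. *Or71a* again met the minimum mainly through replicate 4, and the members were not set against genes of similar counts.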

How the data were processed

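Polyadenylated RNA from heads was sequenced with the QuantSeq REV kit. By the study's methods and the submitters' processing notes, fastp removed poly(A) stretches, the authors then aligned reads to dm6 with STAR 2.6.1b without introns, and deposited raw counts per gene from featureCounts, with replicates kept apart and no normalization. The study names an Ensembl annotation, older than that used here, for its RNA-seq data. For 3′-seq, the sources used here give neither the annotation nor the strand setting, nor how reads that map to more than 1 place were handled.

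Of 13608 gene identifiers 13513 had a symbol. Positions, overlaps and 3′UTRs came from Ensembl release 115 on dm6. Counts were divided by library totals (CPM), with 95% Wilson intervals. With 1 condition there was no differential test. The spread was fitted with edgeR 4.0.16 in R 4.3.3 (TMM, intercept only). Counting noise was tested by chi-square (scipy 1.17.1, statsmodels 0.14.6), and both steps were tested on simulated data. Alternatives were TMM, DESeq2 1.42.0 size factors, count minimums and each replicate left out. Named were *Orco*, members with counts in every replicate, the 10 highest means, larval members with counts and all members at 0. Members, classes and lists were chosen with earlier results of these data known. No sequences were used here.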

Additional observations from a re-analysis of the deposited data

Results flagged for a closer look

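Of 38 values examined over members, class sums, other olfactory genes and marker lists, 13 had a replicate far from the other 3, by Dixon's test at its 95% critical value. For separate groups of normally distributed values, chance alone gives about 1 in 20, or 1.90 of 38. Counts near 0 are not distributed so, and some of the sums share genes. The 13 can therefore not be read as an excess over 1.90. In 9 of the 13 the other replicates were all at 0, so that any count stands apart and the test carries little information.

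Among the receptors these were *Or49b* with 2.25 CPM in replicate 2, *Or1a* with 0.670 CPM, *Or43a* with 0.521 CPM, and *Or67a* and *Or67d* with 0.0744 CPM each in replicate 1, and *Or47b* with 0.468 CPM in replicate 4. Among other olfactory genes they were *Gr21a* with 1.5 CPM in replicate 4, *Gr63a* with 0.228 CPM in replicate 3 and *Ir64a* with 1.08 CPM in replicate 2.

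In the other 4 the remaining replicates were above 0. *Obp83b* had 12.4 CPM in replicate 4 against 0.228 to 2.07 CPM, and *a10* had 10.7 CPM in replicate 4 against 1.80 to 2.90 CPM. In replicate 1 the male accessory gland genes summed to 259.6 CPM and the midgut genes to 653 CPM. The 4 receptors with counts in replicate 1 alone stand beside these sums, and the part of other body parts in them was not tested.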

How the results depend on the processing

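The number of members detected in every replicate was 3, and 0 with a minimum of 10 counts or of 1 CPM in every replicate, minimums that 57.0% and 56.8% of all genes met. It was 3 to 4 with a replicate left out. The number at 0 was 46 to 50. The summed level of the family was 11.3 CPM, and 6.04 CPM without the members that overlap another gene, an alternative added after seeing the data. The number of members that differed beyond counting noise was 6 of 6, 2 of 2 with at least 10 expected counts, since fewer members could be tested, and 4 of 4 with TMM. It was 5 to 6 with a replicate left out. The biological coefficient of variation over all genes was 0.605, and 0.403 when each library had to hold 10 counts or more of a gene, a filter that removes each gene with a 0. TMM and DESeq2 size factors changed 19 levels by factors of 0.868 to 1.13. Leaving out 1 replicate moved 13 of these 19 by more than 1.5 times, all of them members or sums with 0 in at least 1 replicate, and none of *Or63a*, *Or45b* and *Orco*. The share of family counts on *Orco* ranged from 7.59% to 13.3%, and the larval sum from 5.97 to 8.76 CPM. No paired analysis was possible because all libraries belong to the same condition. With 2 to 70 counts per library for the 3 members found in every replicate, presence or absence of the other receptors in single libraries was not determined from these data.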
